A study of Homo sapiens with 6 samples.

Results

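Proteasome subunits and assembly chaperones were examined in ARPE-19, an established cell line derived from human retinal pigment epithelium. Members were the protein-coding genes whose symbol joins PSM, 1 letter from A to G and a number, together with POMP, and 48 of the 30618 genes in the count table met this rule. PSMA8 was not analysed here. All cells were held in 50 mM glucose, and they received either a non-targeting control siRNA (NC, 3 libraries) or an siRNA against EIF1 (siEIF1, 3 libraries). EIF1 is an initiation factor that helps the ribosome select the start codon. The study's methods describe the replicates as independent and print a single siRNA sequence against EIF1, so an effect of that siRNA on other transcripts cannot be told apart from the knockdown. Positions are given on GRCh38 (GENCODE release 44). The question was whether the mRNA of this machinery differed between the 2 groups.

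The proteasome is the main protease of the cytosol and nucleus and degrades proteins tagged with ubiquitin. Its barrel is built from outer rings of alpha subunits, which gate the entrance, and inner rings of beta subunits, some of which cut peptide bonds. The regulatory particle caps the barrel, where non-ATPase subunits bind and remove ubiquitin and a ring of ATPases unfolds the substrate. Dedicated chaperones guide assembly, and in cells exposed to interferon 3 inducible beta subunits replace their constitutive relatives to form the immunoproteasome. When proteasome activity is short, the transcription factor NFE2L1 raises the genes of the whole particle through antioxidant response elements in their promoters. In the retinal pigment epithelium the proteasome works beside the lysosome in clearing damaged protein.

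The libraries held 26499929 to 31431479 counts. EIF1 had 1305, 1254 and 1227 CPM (counts scaled to library size, with TMM factors) in the 3 NC libraries and 109, 104 and 103 in the siEIF1 libraries, a log2 fold change of -3.58 (SE 0.055, edgeR adjusted p = 1.08e-13). Of the epithelial markers, KRT8 and KRT18 had 897 to 1260 CPM in NC and 1059 to 1490 CPM in siEIF1, and both passed the test. Of 10 markers of retinal pigment epithelium, 8 were found, without RPE65 and TTR, and 7 had enough counts to test. Over the 6 libraries BEST1 had 408 to 753 CPM, OTX2 72.9 to 80.2, MITF 47.2 to 51.5 and SERPINF1 5.20 to 8.04 CPM. PMEL, RLBP1 and LRAT were under 2 CPM and TYR was at 0 to 2 counts. Exon overlap with other genes was not examined for the markers. The summed level of the 8 markers found was 87.0 to 96.8 FPKM in NC and 66.2 to 89.8 FPKM in siEIF1. FPKM are fragments scaled by the authors to a length per gene and to mapped fragments. BEST1 made up most of this sum, with a mean of 66.0 FPKM in NC and 52.0 FPKM in siEIF1, and 38.8 FPKM in siEIF1 replicate 3. Leukocyte markers were near 0, with CD14 at 0 to 3 counts and CD3E at 0 or 1 counts and a summed level of 0.32 to 0.36 FPKM in NC and 0.46 to 0.50 FPKM in siEIF1. CD74, the 1 tested leukocyte marker of 4 listed, rose from 2.33, 2.64 and 2.26 CPM in NC to 3.31, 3.40 and 3.68 CPM in siEIF1 (edgeR adjusted p = 0.0268), and RLBP1 rose from 0.602, 0.386 and 0.601 CPM to 1.58, 1.44 and 1.64 CPM (edgeR adjusted p = 0.00102). The part of these marker differences in the results that follow was not tested.

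Most proteasome genes differed little between siEIF1 and NC. A gene was called where edgeR's quasi-likelihood test gave a Benjamini-Hochberg adjusted p under 0.05 over all 16749 genes tested. Unless another setting is named, edgeR means this main fit, on all 6 libraries, with low counts filtered and no term for the replicate number. Of the 48 members, 47 had enough counts to be tested. Of these, 12 members (25.5%) passed, beside 20.6% of all genes tested, so the share of members called was near the background. There were 3 members higher in siEIF1 (6.38%, against 10.2% of all genes) and 9 members lower (19.1%, against 10.4% of all genes). No member passed with a fold change above 2 or below 0.5, which 1.71% of all genes did, and DESeq2 also put 0 members past this limit. By edgeR, 17 members had an unadjusted p under 0.05. The share of all genes at that unadjusted limit was not counted, so this and later counts at it have no background beside them. Folds of the members ran from 0.789 to 1.17. The median log2 fold change was -0.039 over the members and 0.0033 over all genes, and the median size of the log2 fold change, without its sign, was 0.094 for members and 0.15 for all genes. In 19 of the 47 members (40.4%) the CPM values of the groups did not overlap, against 37.1% of all genes. Counts of called members changed with the libraries used: without NC replicate 1, 4 members passed, without NC replicate 3, 4 passed, without siEIF1 replicate 1, 6 passed, and without siEIF1 replicate 2, 4 passed. The share of all genes called fell at the same time, to 13.8%, 14.0%, 19.1% and 13.2%. In bulk RNA, fewer cells of a kind and less RNA per cell cannot be told apart.

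**Figure D1:**
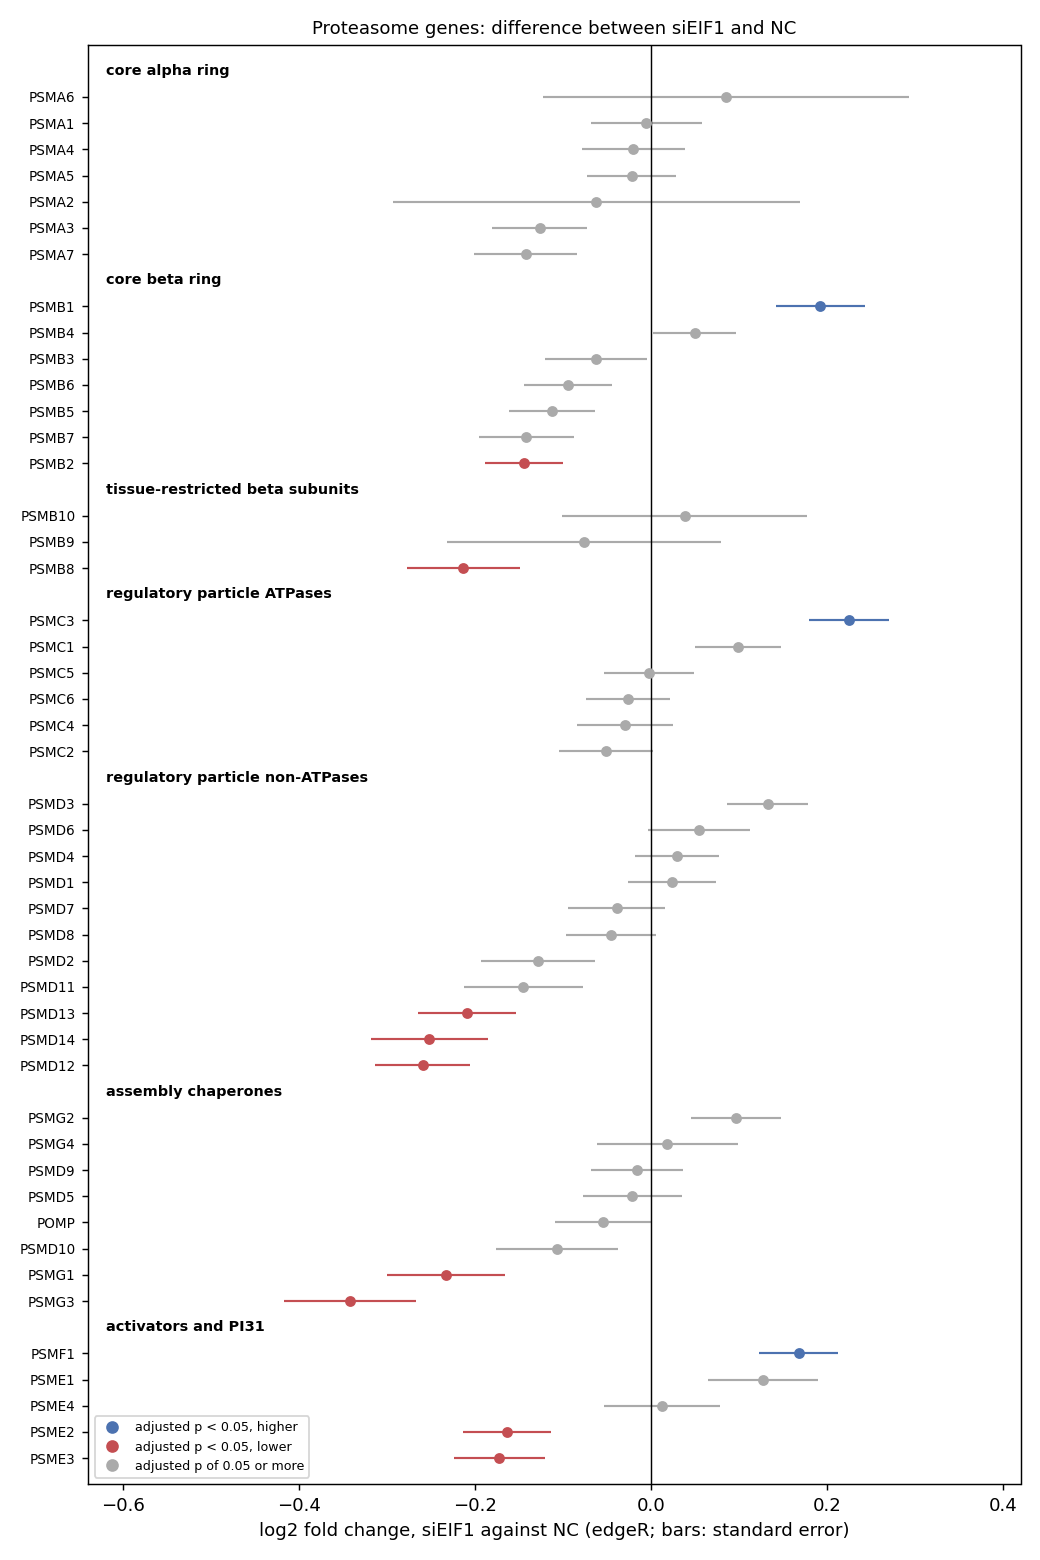
Log2 fold change of each of the 47 tested members in siEIF1 against NC (x axis), grouped by role (y axis); points are edgeR estimates, bars are standard errors, blue marks an adjusted p under 0.05 and higher, and red marks lower. All points lie between -0.34 and 0.23, and the 12 coloured points are spread over 6 of the 7 roles.

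The spread between libraries of the same group was of similar size. Relative to the NC mean, the median member stood at 0.056 in NC replicate 1, -0.049 in NC replicate 2 and -0.010 in NC replicate 3 on the log2 scale. In siEIF1 the medians were -0.012, -0.037 and -0.061. NC replicate 1 held the highest values, with 39 of 47 members above the NC mean, and the siEIF1 medians lay close to those of NC replicates 2 and 3. The summed level of all members was 1242, 1145 and 1203 FPKM in NC and 1174, 1128 and 1135 FPKM in siEIF1, and these ranges overlapped. Leaving out NC replicate 2 moved the median log2 fold change of the members to -0.081.

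**Figure D2:**
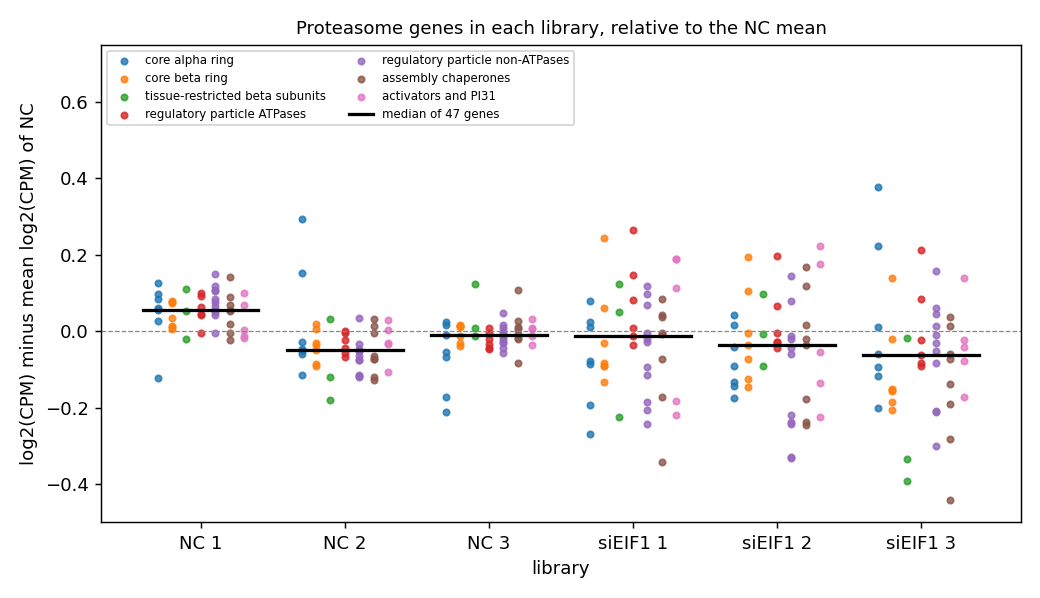
Log2 CPM of each of the 47 tested members minus its mean over the 3 NC libraries (y axis) in each library (x axis), coloured by role; black lines are the median of the 47 members. The medians of NC replicates 1 and 2 (0.056 and -0.049) lie nearly as far apart as those of NC replicate 1 and siEIF1 replicate 3 (-0.061), while single genes of every role scatter to both sides of 0.

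Promoters of the members were searched for 4 motifs in the 250 bases before the gene start (RefSeq, GRCh38.p14), on both strands, and 42 of the 48 members had an entry. The antioxidant response element was searched in a loose form, TGANNNNGC, where N is any base, so a match need not be the element itself. These letters were found in 22 members (52.4%) and in 35.4% of all 27305 promoters. The CCAAT box, CCAAT, was in 18 members (42.9%) and 33.0% of all promoters. The interferon-stimulated response element, searched as GAAA, any 2 bases and GAAA, was in 5 members (11.9%) and 3.07% of all promoters, and the GAS element, TTCNNNGAA, in 4 members (9.52%) and 6.78% of all promoters. A match is a description of the letters and not a site of binding. Among members with an entry, the antioxidant letters were found in 1 of 2 members that were higher, in 5 of 8 that were lower and in 15 of 31 that did not pass. For each called member with the antioxidant letters, 1 stretch is shown because these genes went in both directions. The motif is in capitals, and each stretch reads 5′ to 3′ on the gene's own strand. PSMG1 also holds matches that begin at -148 and -12 from the gene start, outside the stretch shown. In PSMD14 the match lies on the opposite strand, so the capitals read as its reverse complement. Shorter stretches are shown for PSMD14, PSMB8 and PSME2, where annotated exons of GENCODE cover the window, and the RefSeq start used for PSME2 lies inside the GENCODE gene.
PSMC3, higher, chr11:47426630-47426689, reverse strand: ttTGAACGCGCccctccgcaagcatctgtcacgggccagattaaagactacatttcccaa
PSMD12, lower, chr17:67366708-67366767, reverse strand: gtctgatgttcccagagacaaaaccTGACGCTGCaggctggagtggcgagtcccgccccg
PSMD14, lower, chr2:161308269-161308298, forward strand: ggcgctaagtGCCGCCTCAcagtcctgcca
PSMG1, lower, chr21:39183600-39183659, reverse strand: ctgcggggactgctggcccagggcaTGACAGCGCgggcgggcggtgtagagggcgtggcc
PSMB8, lower, chr6:32844814-32844843, reverse strand: cgcctggctcTGAAGCTGCacctggagggg
PSME2, lower, chr14:24146766-24146795, reverse strand: ccctggactgTGACCCAGCcagcaccgcct

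None of the 7 alpha ring subunits passed in the main edgeR fit (beside 20.6% of all genes), by DESeq2 or by limma. By edgeR, 2 had an unadjusted p under 0.05. With a replicate block, edgeR called PSMA7 lower (log2 fold change -0.14, adjusted p = 0.0223). The log2 fold change was negative in 6 of the 7. PSMA7 had the lowest, with 203, 179 and 178 CPM in NC and 176, 169 and 162 CPM in siEIF1 (log2 fold change -0.14, SE 0.058, adjusted p = 0.106). NC replicate 1 was the highest library by a wide margin, the groups did not overlap, and without that library the log2 fold change was -0.078. PSMA3 gave 73.9, 68.3 and 67.1 CPM in NC and 65.6, 61.8 and 64.3 CPM in siEIF1 (log2 fold change -0.13, SE 0.054, adjusted p = 0.119), again without overlap. The highest estimate, 0.09 for PSMA6, rested on fewer than 3 CPM per library and had an SE of 0.21. PSMA1, PSMA4 and PSMA5 had log2 fold changes from -0.022 to -0.0057, with overlapping groups.

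Low values of PSMA2 and PSMA6 went with annotated genes that lie over them. All of the canonical PSMA2 transcript (100%) is also exonic, on the same strand, in RP11-111K18.1, which GENCODE release 44 lists as a separate protein-coding gene. PSMA2 had 1.32, 1.76 and 1.27 CPM in NC and 1.19, 1.31 and 1.67 CPM in siEIF1, whereas RP11-111K18.1 had 117, 109 and 113 CPM in NC and 121, 123 and 108 CPM in siEIF1. For PSMA6, 81.4% of the transcript is shared with RP11-561B11.2, and the 2 genes had 1.88, 2.00 and 1.56 CPM and 116, 110.3 and 112 CPM in NC. In siEIF1 PSMA6 had 1.58, 1.86 and 2.34 CPM and RP11-561B11.2 had 109, 111 and 108 CPM. PSMA1 shares 67.0% of its transcript with RP11-140L24.4, at 93.2, 87.2 and 85.8 CPM in NC and 96.3, 91.7 and 87.5 CPM in siEIF1. The overlapping genes had log2 fold changes of 0.051, -0.044 and 0.050, and none of the 3 passed the test. They were chosen after their values were seen. How reads in shared exons were assigned was not tested, so the levels of PSMA1, PSMA2 and PSMA6 are uncertain. In all, 6 members share exon bases with another gene on the same strand and 6 on the opposite strand, among the latter PSMC1 with 83.2% and PSMD7 with 51.6% of the transcript.

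**Figure D3:**
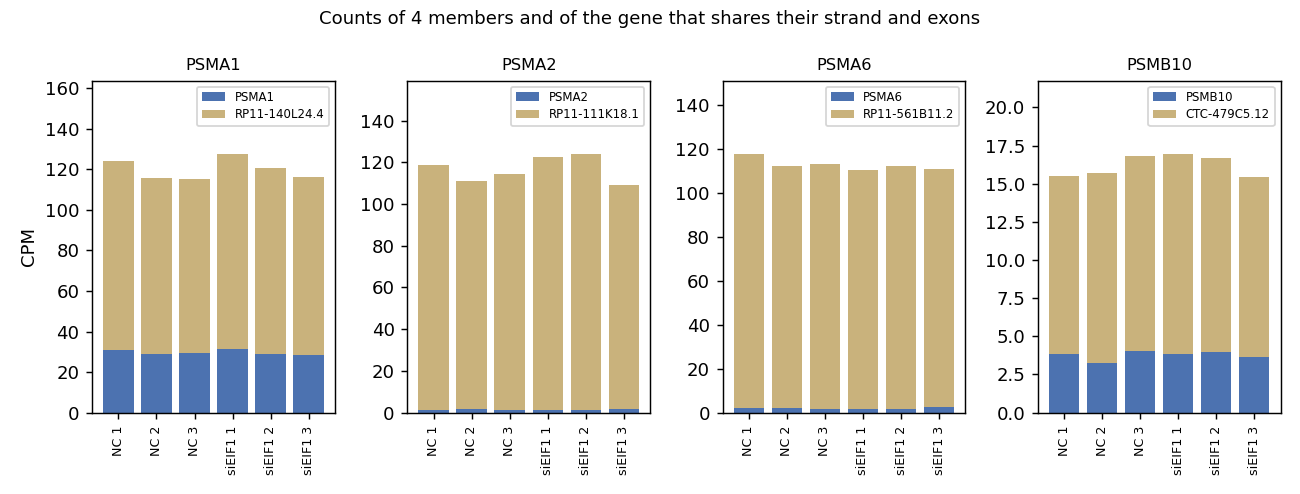
CPM (y axis) of 4 members (blue) stacked with the annotated gene that shares their exons on the same strand (tan) in each library (x axis, 3 NC and 3 siEIF1). Nearly all of the stacked height over PSMA2 and PSMA6 belongs to the overlapping gene, and the stacks are of similar height in both groups.

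In the beta ring, PSMB1 rose and PSMB2 fell (2 of 7, or 28.6% called, beside 20.6% of all genes). The 3 constitutive catalytic subunits, PSMB5, PSMB6 and PSMB7, did not pass in the main edgeR fit. PSMB1 (chr6:170535120-170553307, reverse strand), a structural subunit of the ring, had 133, 123 and 123 CPM in NC and 149, 144 and 139 CPM in siEIF1. Every siEIF1 library lay above every NC library, with a log2 fold change of 0.19 (SE 0.051, edgeR adjusted p = 0.0163), or 14.2%. PSMB2 (chr1:35599541-35641526, reverse strand), also structural, had 134, 129.5 and 134 CPM in NC and 121, 119.6 and 119 CPM in siEIF1. Its groups did not overlap, and it fell by 0.14 on the log2 scale (SE 0.044, edgeR adjusted p = 0.0334). The call of PSMB1 was lost without NC replicate 2, NC replicate 3, siEIF1 replicate 1 or siEIF1 replicate 2 (adjusted p up to 0.0894), and that of PSMB2 without any 1 library other than siEIF1 replicate 3 (up to 0.131) and with no filter on low counts (0.0717). PSMB7, which carries the trypsin-like activity, had the highest FPKM of the members, 103 ± 6.58 in NC (SD, n = 3). It had 237.6, 211.2 and 226.7 CPM in NC and 211.0, 206.1 and 195.0 CPM in siEIF1, groups that only just failed to overlap (log2 fold change -0.14, SE 0.054, adjusted p = 0.0837). By edgeR, PSMB7 passed without NC replicate 2, at -0.19 (adjusted p = 0.0431), and with a replicate block (adjusted p = 0.0308). PSMB5, which carries the chymotrypsin-like activity, had 110.3, 111 and 107 CPM in NC and 103, 104 and 96.2 CPM in siEIF1, without overlap (log2 fold change -0.11, SE 0.049, adjusted p = 0.125). PSMB5 was called lower by limma on log2(FPKM + 1) (adjusted p = 0.0393) and on log2(FPKM + 0.1) (adjusted p = 0.0409).

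PSMB8 was the one inducible subunit that passed the test (1 of 3, or 33.3%, beside 20.6% of all genes), and it fell in siEIF1. PSMB8 (chr6:32840717-32844679, reverse strand) had 45.9, 47.7 and 46.2 CPM in NC and 39.9, 43.7 and 37.0 CPM in siEIF1, a fall of 13.8% (log2 fold change -0.21, SE 0.064, edgeR adjusted p = 0.031). The 3 siEIF1 libraries lay below all NC libraries, with siEIF1 replicate 3 the lowest. This call was lost without any 1 library except siEIF1 replicate 2, with adjusted p up to 0.0954. PSMB9 and PSMB10 were at 0.997 and 1.87 FPKM in NC, against 11.0 FPKM for PSMB8. For PSMB9, siEIF1 replicate 3 was the lowest of the 6 libraries (4.37, 3.72 and 4.07 CPM in NC and 4.41, 4.02 and 3.08 CPM in siEIF1), and the groups overlapped (log2 fold change -0.08, SE 0.16, adjusted p = 0.782). PSMB10 also overlapped, with 3.84, 3.27 and 4.03 CPM in NC and 3.83, 3.95 and 3.65 CPM in siEIF1 (log2 fold change 0.04, SE 0.14, adjusted p = 0.886). It shares 56.1% of its transcript with CTC-479C5.12 on the same strand, which had 11.6, 12.4 and 12.8 CPM in NC and 13.1, 12.8 and 11.8 CPM in siEIF1. PSMB11, the thymus subunit, had 2 counts in siEIF1 replicate 3 and 0 in every other library and was not tested.

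The 5 members with letters of the interferon-stimulated response element were PSMA4, PSMB4, PSMB10, PSMG4 and PSME2, of which PSME2 passed the test. The stretches of the 2 interferon-inducible members, PSMB10 and PSME2, are shown, and their 10 capitals were also found in the promoter of the chaperone PSMG4.
PSMB10, chr16:67936852-67936881, reverse strand: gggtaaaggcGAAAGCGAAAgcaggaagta
PSME2, chr14:24146619-24146648, reverse strand: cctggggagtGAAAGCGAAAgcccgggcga

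Each inducible subunit takes the place of one constitutive subunit, so the FPKM of the pair was compared within each library. The percentages rest on the lengths behind the FPKM, so they serve to compare the groups and not to give shares of the particle. PSMB8 stood at 18.5, 19.1 and 19.2 percent of PSMB5 in NC and at 17.2, 18.7 and 17.1 percent in siEIF1. The groups overlapped, with a difference in log2 ratio of -0.10 (two-sided exact permutation p = 0.20, adjusted over 3 pairs 0.30). PSMB9 stood at 1.88, 1.71 and 1.77 percent of PSMB6 in NC and at 2.07, 1.81 and 1.51 percent in siEIF1, a difference of -0.0012 in log2 ratio (exact permutation p = 1.0, adjusted 1.0). The siEIF1 values surrounded those of NC. PSMB10 stood at 1.78, 1.70 and 1.96 percent of PSMB7 in NC and at 2.00, 2.11 and 2.05 percent in siEIF1. All siEIF1 libraries were higher by this measure, and the difference of 0.18 in log2 ratio had an exact permutation p of 0.10 (adjusted 0.30), the smallest that 3 libraries against 3 can give. The denominator PSMB7 had a negative estimate that did not pass the test, and PSMB10 shares exons with another gene, as given above.

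**Figure D4:**
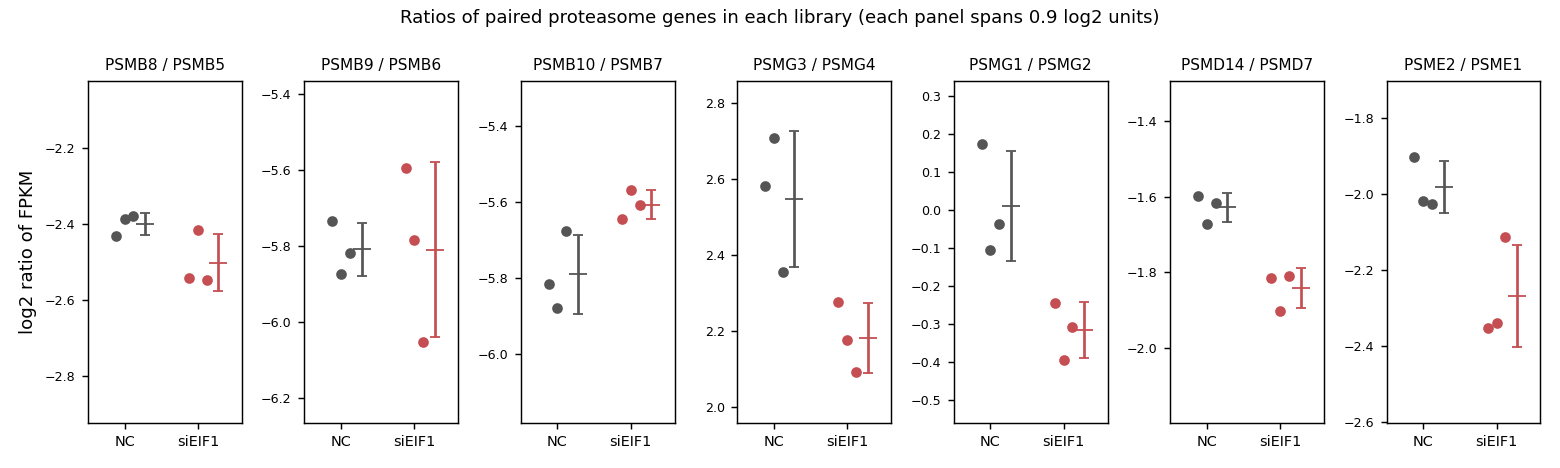
Log2 ratio of FPKM between the members of 7 pairs (y axis, each panel spanning the same range) in the 3 NC (grey) and 3 siEIF1 libraries (red); bars show the mean and SD. The 3 panels at left are the inducible and constitutive beta pairs, and the other 4 were chosen after their values were seen and show siEIF1 below NC in every library.

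Of the 6 ATPases, 1 rose (16.7% called, beside 20.6% of all genes), and it had the smallest adjusted p of all members. PSMC3 (chr11:47418769-47426473, reverse strand) had 95.0, 95.1 and 95.9 CPM in NC and 115, 109 and 111 CPM in siEIF1. The NC libraries agreed within 1 CPM of each other and the siEIF1 libraries all lay above them, a rise of 16.9% (log2 fold change 0.23, SE 0.045, edgeR adjusted p = 0.00334). PSMC1 had 139, 128 and 133 CPM in NC and 148, 139.8 and 141 CPM in siEIF1, groups that did not overlap but that did not pass (log2 fold change 0.10, SE 0.049, adjusted p = 0.182). PSMC2 had the lowest estimate among the ATPases, -0.05 (SE 0.053, adjusted p = 0.558), with 97.0, 86.4 and 88.5 CPM in NC and 88.3, 88.7 and 85.5 CPM in siEIF1. The other 3, PSMC4, PSMC5 and PSMC6, had log2 fold changes from -0.030 to -0.0021 with overlapping groups. Subunits of this ring are present in equal number in the particle, and their NC levels ran from 8.21 FPKM for PSMC6 to 34.3 FPKM for PSMC3. In CPM the same genes had means of 74.9 and 95.3 in NC, and their canonical transcripts hold 2163 and 1540 bases. The span in FPKM therefore rests in part on the length used for each gene.

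Of the 11 non-ATPase subunits, 3 were called by edgeR, all lower (27.3%, beside 20.6% of all genes called). None rose in the main edgeR fit, by DESeq2 or by limma, and 1 was higher at an unadjusted p under 0.05 by edgeR. PSMD12 (chr17:67337916-67366605, reverse strand), a scaffold subunit of the lid, had 91.0, 82.6 and 85.6 CPM in NC and 73.0, 68.7 and 74.8 CPM in siEIF1. The highest siEIF1 library lay below the lowest NC library, and the log2 fold change was -0.26 (SE 0.054, edgeR adjusted p = 0.00413). PSMD14 (chr2:161308425-161411717, forward strand), the deubiquitinase that removes the ubiquitin chain as the substrate enters, had 109, 90.4 and 95.9 CPM in NC and 85.1, 77.9 and 84.7 CPM in siEIF1. NC replicate 1 was well above the other two, the groups did not overlap, and the gene fell by 0.25 on the log2 scale (SE 0.066, edgeR adjusted p = 0.016). Without NC replicate 1 the value was -0.17 (adjusted p = 0.0688), and without siEIF1 replicate 2 the adjusted p was 0.0854. The call was also lost with limma on log2(FPKM + 1) (adjusted p = 0.0612). PSMD13 (chr11:236966-252984, forward strand), another lid subunit, had 98.4, 92.0 and 96.1 CPM in NC and 88.2, 82.0 and 77.5 CPM in siEIF1. It fell by 0.21 on the log2 scale (SE 0.056, edgeR adjusted p = 0.017), with siEIF1 replicate 3 the lowest, and lost its call without NC replicate 1, NC replicate 3 or siEIF1 replicate 2.

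The other 8 non-ATPase subunits did not pass in the main edgeR fit. With a replicate block, edgeR called PSMD2 and PSMD11 lower and PSMD3 higher (adjusted p 0.0429, 0.0405 and 0.0361). PSMD3 had the highest estimate of the non-ATPase subunits, with 104, 107 and 102 CPM in NC and 111, 115 and 116 CPM in siEIF1 (log2 fold change 0.13, SE 0.046, adjusted p = 0.058), and its groups did not overlap. PSMD7, the partner with which PSMD14 forms a dimer, had 122, 106 and 109 CPM in NC and 110.5, 108 and 109.6 CPM in siEIF1 (log2 fold change -0.04, SE 0.055, adjusted p = 0.677). As a description, PSMD14 stood at 33.0, 31.4 and 32.6 percent of PSMD7 by FPKM in NC and at 28.5, 26.8 and 28.6 percent in siEIF1. Because this pair was chosen after its values were seen, its exact permutation p of 0.10 was not used. PSMD2, the large scaffold of the base and the member with the most counts, had 461, 394 and 434 CPM in NC and 402, 364 and 414 CPM in siEIF1, with overlap (log2 fold change -0.13, SE 0.065, adjusted p = 0.193). PSMD4, the ubiquitin receptor, overlapped as well, with 166, 155 and 159.8 CPM in NC and 159.7, 169 and 162 CPM in siEIF1 (log2 fold change 0.03, SE 0.047, adjusted p = 0.72). PSMD1, PSMD6, PSMD8 and PSMD11 had log2 fold changes from -0.15 to 0.05, and their groups overlapped. Without siEIF1 replicate 3, PSMD11 passed at -0.22 (adjusted p = 0.0215).

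Among the 8 assembly chaperones, PSMG3 and PSMG1 fell (25% called, beside 20.6% of all genes). The partner of each in its heterodimer did not pass. PSMG3 (chr7:1567332-1571005, reverse strand) had 21.2, 20.9 and 19.3 CPM in NC and 16.2, 17.3 and 15.1 CPM in siEIF1. This was the largest change of any member, -21.1% (log2 fold change -0.34, SE 0.075, edgeR adjusted p = 0.00577), and the groups did not overlap. PSMG4, with which PSMG3 pairs during assembly of the alpha ring, had 18.8, 17.0 and 19.99 CPM in NC and 17.6, 20.1 and 18.7 CPM in siEIF1 (log2 fold change 0.02, SE 0.08, adjusted p = 0.907). PSMG1 (chr21:39174769-39183488, reverse strand) had 55.7, 46.5 and 49.8 CPM in NC and 44.9, 42.9 and 41.6 CPM in siEIF1, where NC replicate 1 was the highest and the groups did not overlap (log2 fold change -0.23, SE 0.068, edgeR adjusted p = 0.026). Its partner PSMG2 had 63.4, 64.2 and 65.5 CPM in NC and 68.2, 72.3 and 66.0 CPM in siEIF1, the highest estimate of the chaperones (log2 fold change 0.10, SE 0.051, adjusted p = 0.216). The adjusted p of PSMG1 rose to 0.11 at most when 1 library was left out, and 2 of the 6 such fits called it. By FPKM, PSMG3 stood at 598, 653 and 511 percent of PSMG4 in NC and at 484, 452 and 426 percent in siEIF1. The CPM of both genes, given above, lay close together, so the size of these percentages rests largely on the lengths behind the FPKM. PSMG1 stood at 113, 93.0 and 97.4 percent of PSMG2 in NC and at 84.3, 76.0 and 80.7 percent in siEIF1. Both pairs were chosen after their values were seen, so their exact permutation p values, each 0.10, were not used. POMP, which completes the maturation of the core, had 103, 93.5 and 98.7 CPM in NC and 98.0, 97.0 and 89.3 CPM in siEIF1, with overlap (log2 fold change -0.05, SE 0.054, adjusted p = 0.541). The regulatory particle chaperones PSMD5, PSMD9 and PSMD10 had log2 fold changes from -0.11 to -0.02, and none passed.

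The activators and the regulator PI31 had 3 of 5 members called (60%, beside 20.6% of all genes), in both directions. PSMF1 (chr20:1113240-1189415, forward strand), which encodes PI31, had 103, 107 and 104 CPM in NC and 119, 118 and 115 CPM in siEIF1. The siEIF1 libraries all lay above NC, by 12.3% (log2 fold change 0.17, SE 0.045, edgeR adjusted p = 0.018). PSME1 and PSME2 encode the 2 chains of the interferon-inducible activator ring. PSME2 (chr14:24143362-24147570, reverse strand) had 74.9, 70.0 and 69.7 CPM in NC and 63.0, 65.1 and 63.4 CPM in siEIF1, without overlap, and fell by 0.16 on the log2 scale (SE 0.05, edgeR adjusted p = 0.0341). PSME1 had 139, 140.4 and 141 CPM in NC and 159, 163 and 136 CPM in siEIF1. Of its siEIF1 libraries, 2 lay above NC and replicate 3 lay below, and it did not pass with all 6 libraries (log2 fold change 0.13, SE 0.062, adjusted p = 0.177). Without siEIF1 replicate 3 its log2 fold change was 0.20 and it passed (adjusted p = 0.0053). PSME2 stood at 26.8, 24.7 and 24.6 percent of PSME1 by FPKM in NC and at 19.6, 19.8 and 23.1 percent in siEIF1, a pair that was also chosen after its values were seen. PSME3 (chr17:42824385-42843760, forward strand), which forms the nuclear activator, had 123, 120.1 and 126 CPM in NC and 106, 105 and 117 CPM in siEIF1, again without overlap (log2 fold change -0.17, SE 0.052, edgeR adjusted p = 0.0316). PSME4, which caps the core as a single large chain, had 46.8, 40.6 and 43.9 CPM in NC and 47.3, 42.1 and 43.0 CPM in siEIF1, with the groups intermingled (log2 fold change 0.01, SE 0.066, adjusted p = 0.925). The call of PSME2 was lost without any 1 of the 6 libraries, that of PSME3 was kept in 1 and that of PSMF1 in 2 of the 6 fits that left out a library. With limma on log2(FPKM + 1) the adjusted p was 0.0711 for PSME3 and 0.0595 for PSMF1, and with no filter it was 0.0529 for PSME2. PSMC3, PSMD12 and PSMG3 passed in all 6 of those fits and under all 7 other alternatives.

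FPKM differed far more between members than between groups. In NC, the highest were PSMB7 at 103 FPKM, PSMA7 at 87.3, PSMB4 at 71.7, PSMD2 at 71.1 and PSME1 at 64.6 FPKM. Of the chaperones, POMP had the highest FPKM, 55.2, and PSMG4 the lowest, 1.46. Apart from PSMA2, PSMA6 and PSMB11, the members lowest in FPKM were PSMB9, PSMG4 and PSMB10. The rank of PSMG4 rests on the length behind its FPKM. PSMG4 had 18.6 CPM in NC and a canonical transcript of 785 bases. PSMG3 had 20.5 CPM and 1428 bases but 8.51 FPKM, so the length used was not that of the canonical transcript. Ranks of members by FPKM are therefore uncertain. Among constitutive catalytic subunits the NC values were 57.9 ± 0.455 FPKM for PSMB5, 55.8 ± 2.08 for PSMB6 and 103 ± 6.58 for PSMB7 (SD, n = 3), with the lowest library of PSMB5 (57.4) just above the highest of PSMB6 (57.0).

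**Figure D5:**
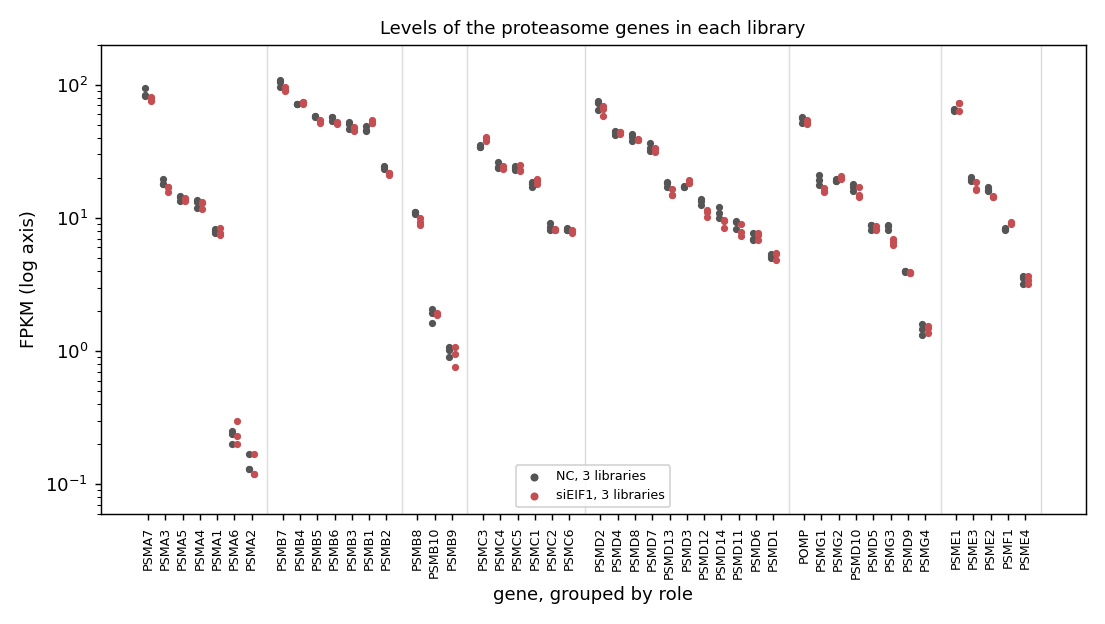
FPKM of the members in each library (y axis, logarithmic), grouped by role and ordered by NC mean within a role (x axis); grey points are the 3 NC libraries and red points the 3 siEIF1 libraries. Levels span from about 0.14 FPKM for PSMA2 to 103 FPKM for PSMB7 in NC, and the points of both groups lie close together for every gene; PSMB11 is at 0 in NC and is not drawn.

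Partner lists of bound factors, regulators, ubiquitin genes, and antigen processing and interferon response held 70 tested genes outside the rule. Of these, 6 rose and 12 fell (18 of 70, or 25.7%, beside the 20.6% of all genes). The antigen and interferon list gave 11 of the 18 calls, with 40.7% of its genes called. The share was 14.3% for bound factors, 27.3% for regulators and 11.1% for ubiquitin genes. The counts of 6 and 12 depended on single libraries. Without NC replicate 1, 2 or 3 or siEIF1 replicate 2, 2 were higher, and without siEIF1 replicate 2, 7 were lower. Among 14 subunits and bound factors outside the rule, 2 fell (14.3% called, beside 20.6% of all genes). None rose in the main edgeR fit, by DESeq2 or by limma, and 3 were higher at an unadjusted p under 0.05 by edgeR. The summed level of the 14 genes was 153 to 168 FPKM in NC and 149.6 to 162 FPKM in siEIF1. UCHL5, a deubiquitinase of the regulatory particle, had 23.6, 23.2 and 22.4 CPM in NC and 19.9, 16.5 and 17.2 CPM in siEIF1, without overlap (log2 fold change -0.36, SE 0.078, edgeR adjusted p = 0.00482). PAAF1, which binds the ATPases before the particle is complete, had 24.3, 24.3 and 22.0 CPM in NC and 19.9, 20.9 and 19.0 CPM in siEIF1 (log2 fold change -0.24, edgeR adjusted p = 0.0265).

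Regulators of proteasome transcription gave 1 gene higher and 2 lower of 11 tested (27.3% called, beside 20.6% of all genes). NFE2L1, the activator named above, had 378, 355 and 378 CPM in NC and 348, 374 and 412 CPM in siEIF1, and the groups overlapped (log2 fold change 0.03, SE 0.061, edgeR adjusted p = 0.793). NFE2L2, the related oxidative stress factor, had 142, 134 and 144 CPM in NC and 134, 117 and 126 CPM in siEIF1. It was lower in all 3 siEIF1 libraries but did not pass in the main edgeR fit (log2 fold change -0.15, adjusted p = 0.0641). By edgeR it passed without siEIF1 replicate 1, at -0.20 (adjusted p = 0.0246). It also passed with no filter on low counts (adjusted p = 0.0474) and with a replicate block (adjusted p = 0.0147). Small Maf proteins are the DNA-binding partners of both factors, and 2 of them fell. MAFF had 64.8, 56.1 and 56.9 CPM in NC and 37.2, 31.3 and 40.4 CPM in siEIF1 (log2 fold change -0.71, edgeR adjusted p = 8.06e-05), and MAFG had 64.6, 62.3 and 62.6 CPM in NC and 47.4, 45.4 and 47.4 CPM in siEIF1 (log2 fold change -0.43, edgeR adjusted p = 5.42e-05). Both differences were wider than the spread within either group. FOXO4, a forkhead factor, had 11.0, 11.1 and 10.5 CPM in NC and 12.4, 13.4 and 14.5 CPM in siEIF1 (log2 fold change 0.30, edgeR adjusted p = 0.0223). With limma on log2(FPKM + 1) the adjusted p of FOXO4 was 0.0713 and that of PAAF1 0.0589. The call of FOXO4 was also lost without any 1 library except siEIF1 replicate 1 (adjusted p 0.0521 to 0.0872), and that of PAAF1 without NC replicate 1 or 2 or siEIF1 replicate 1 or 3 (0.0515 to 0.0889). No test of a link between these factors and the members was run.

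Ubiquitin genes, shuttle factors and VCP had 0 higher and 2 lower of 18 tested by edgeR (11.1% called, beside 20.6% of all genes). By edgeR, 2 were higher at an unadjusted p under 0.05, and 0 were called higher by DESeq2 and limma. UBQLN1, a shuttle that brings ubiquitinated protein to the particle, had 155, 148 and 145 CPM in NC and 133, 129 and 135 CPM in siEIF1 (log2 fold change -0.17, adjusted p = 0.0184). UBA6, a ubiquitin-activating enzyme, had 37.0, 36.3 and 35.7 CPM in NC and 33.0, 29.0 and 33.3 CPM in siEIF1 (log2 fold change -0.19, adjusted p = 0.0493), and was not called by DESeq2 (adjusted p = 0.0660). The call of UBA6 was also lost without NC replicate 1, 2 or 3 or siEIF1 replicate 2 (0.103 to 0.203) or by limma on log2(FPKM + 0.1) (0.147), and that of UBQLN1 without NC replicate 1 or siEIF1 replicate 2 (0.0675 and 0.0840). Antigen processing and interferon response genes, some of whose products use or induce the immunoproteasome, had 5 higher and 6 lower of 27 tested (40.7%, beside 20.6% of all genes). DESeq2 called 5 higher and 5 lower in this list, beside 18.2% of all genes. Limma on log2(FPKM + 1) called only 2 higher and 3 lower, beside 15% of all genes, so the excess depended on the tool. TAP2, a chain of the peptide transporter, fell from 12.2, 11.0 and 10.7 CPM in NC to 8.11, 7.87 and 8.17 CPM in siEIF1 (log2 fold change -0.49, edgeR adjusted p = 0.00192). IRF1, a factor that activates inducible subunits, fell from 10.4, 8.89 and 9.98 CPM to 6.56, 7.01 and 6.66 CPM (log2 fold change -0.53, edgeR adjusted p = 0.00202), and OAS3, an interferon-induced enzyme, fell by 0.51 on the log2 scale (edgeR adjusted p = 0.00544). In the other direction, TAPBP, which loads peptide onto class I molecules, rose from 91.7, 98.2 and 99.9 CPM to 108, 113 and 117 CPM (log2 fold change 0.22, edgeR adjusted p = 0.00868). GBP1 and ERAP1, which trims peptides, had log2 fold changes of 0.46 and 0.20 (edgeR adjusted p = 0.0164 and 0.0217). The calls of OAS3, GBP1 and ERAP1 were lost with limma on log2(FPKM + 1), at adjusted p of 0.0516, 0.0517 and 0.119. That of GBP1 was also lost without NC replicate 1 or siEIF1 replicate 2 (0.0693 and 0.0732), and that of ERAP1 without NC replicate 2, NC replicate 3 or siEIF1 replicate 3 (0.0982, 0.0784 and 0.0520). PSMB8 and PSME2 were lower beside this list, and the list itself went in both directions.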

How the data were processed

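Strand-specific mRNA libraries of 3 NC and 3 siEIF1 samples of ARPE-19 cells were grouped by their titles. The sample records and the study's methods differ in the amount of RNA used and in how the strand was marked, so the library chemistry is uncertain. The authors trimmed reads, aligned them to GRCh38 with HISAT2 and deposited raw counts of uniquely mapped reads per gene. FPKM values, which the authors deposited beside the counts, served for levels and ratios. The length used for each gene is not given in the sources used here, and it was not always that of the canonical transcript. The counting program, its strand setting and the annotation release are not given in the sources used here, so overlapping genes are uncertain. All columns matched a library and 0 were left out.

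Counts were filtered with filterByExpr and fitted over 16749 genes with edgeR 4.0.16 (TMM, quasi-likelihood test, Benjamini-Hochberg) in R 4.3.3. The SE follows from the F statistic. On simulated counts of 16532 genes, this fit recovered 190 of 200 genes changed 2-fold, with 17 false calls. Smaller changes were not simulated, so recovery is unknown for folds like those of the members (0.789 to 1.17). DESeq2 1.42.0, which the authors used, limma 3.58.1 on log2(FPKM + 1) and log2(FPKM + 0.1), other scalings, no filter, a replicate block and leaving out each library were alternatives. Pair ratios were tested by exact permutation in scipy 1.17.1. Libraries of a group differed by more than sampling noise (chi-square per degree of freedom 3.00 to 14.1). Coordinates and exon overlaps came from GENCODE release 44, with its canonical transcripts, and promoters from RefSeq. The members, lists, markers and motifs were chosen with earlier results of these data known. Values are given for members that passed, for the lowest and highest of each role, for other members that illustrate a role, for at most 3 genes per direction of each partner list, for NFE2L1 and NFE2L2, and for overlapping genes chosen after their values were seen.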

Additional observations from a re-analysis of the deposited data

How the results depend on the processing

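RLE and upper-quartile scaling, no filter, DESeq2 and limma on FPKM left 10 to 12 members called, and no called member changed direction in any of 13 alternatives. The partner counts moved under limma on log2(FPKM + 1), to 2 higher and 7 lower, and on log2(FPKM + 0.1), to 2 higher. Leaving out 1 library gave 1 to 4 members higher, 2 to 7 lower, 2 to 7 partners higher, 7 to 12 partners lower and a member median from -0.081 to -0.0048. Fewer samples enter each of those fits, and the cause of the other moves was not tested. The log2 ratio of PSMB9 to PSMB6, -0.0012, changed sign as a ratio of counts (0.0026) and with 1 added to both values (0.059), and ran from -0.11 to 0.12 with 1 library left out. PSME4 changed sign under limma (-0.0062 and -0.0077). With 1 library left out, near-zero log2 fold changes changed sign in PSMD1 (-3.9e-05 to 0.057), PSME4 (-0.045 to 0.063), PSMD9 (-0.033 to 0.0039), PSMA1 (-0.052 to 0.022), PSMC4 (-0.058 to 0.017), PSMB9 (-0.19 to 0.059), PSMB10 (-0.053 to 0.10), PSMD7 (-0.082 to 0.022), PSMC5 (-0.046 to 0.026), PSMA6 (-0.081 to 0.21), PSMD5 (-0.059 to 0.0055), PSMG4 (-0.049 to 0.074), PSMA2 (-0.22 to 0.096), PSMA5 (-0.054 to 0.013), PSMA4 (-0.081 to 0.029) and NFE2L1 (-0.038 to 0.084). None of these passed in either direction. Same-numbered NC and siEIF1 libraries had correlated deviations of 0.15, 0.095 and 0.13 over 16749 genes, 1 of them under 0.1, so the numbers were not taken to pair them, although each library correlated best with its own number. With a replicate block, 4 members were higher and 13 lower (17 of 47, 36.2%), beside 25.5% of all genes. It called PSMA7, PSMB7, PSMD2, PSMD3 and PSMD11 beside the 12 members called without it, and NFE2L2 among the regulators (adjusted p 0.0147 to 0.0429). PSMA2, PSMA6, PSMB9 and PSMB10 had low counts and an SE of 0.14 to 0.23, so that smaller differences were not detectable with these counts. PSMA2, PSMA6 and PSMB10 share exons with other genes, and the part of depth and of read assignment in their low counts was not tested.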
